A study of Arabidopsis thaliana with 12 samples.

Results

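The WRKY family of transcription factors was followed in whole roots of Arabidopsis thaliana (Col). The family was taken as 53 listed loci from WRKY1 to WRKY75, of the 21200 genes of the count table. The table held 52 of them, and WRKY50 was not analysed here. A filter on low counts kept 50 members among 18867 genes. WRKY12 had no read in any of the 12 libraries. WRKY55 did not pass the filter either, with 5 and 3 reads in the ipdc 7 d libraries, 3 and 0 in the Az39 7 d libraries, 1 and 1 in the saline 7 d libraries, and at 24 h 2 and 0 with ipdc and none with Az39 or saline.

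Roots had received the ipdc mutant of Azospirillum brasilense, its wild-type strain Az39 or 0.9% saline, and were sampled 7 d or 24 h later, with 2 libraries in each of the 6 groups. The mutant is defective in indole-3-pyruvate decarboxylase, an enzyme by which this root-dwelling bacterium makes the auxin indole-3-acetic acid. Every group was wild-type Col grown on sucrose medium under 16 h of light and treated 4 days after planting with 2 uL, of bacteria at an OD595 of 1 in saline or of saline alone, so that no group was untreated. Each library pooled at least 50 root systems, so a library is a mean over seedlings and over all cell types of the root, and fewer cells of a type cannot be told apart from less RNA per cell.

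WRKY proteins bind DNA through a domain that carries the amino acids WRKYGQK next to a zinc finger, and most recognise the W box, TTGACC or TTGACT. They are sorted by the number of these domains and the type of finger into group I, the subgroups IIa to IIe, and group III. Many are switched on within minutes to hours by microbes, by salicylic acid or by wounding, several are phosphorylated by MAP kinases, and some act on phosphate, boron or aluminium responses of roots. Many WRKY promoters themselves hold W boxes.

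Library totals were 9665704 to 21541793 reads counted in genes. All 8 root markers looked at were detected in every library. The beta-glucosidase PYK10 had 5240 to 11800 counts per 1000000 counts of the library, without TMM scaling, and the quiescent-centre regulator WOX5 1.1 to 7.28. No marker other than PYK10 passed 118, so PYK10 made up most of the sum of the 8. CPM below are counts per 1000000 counts of the library, TMM-scaled. Together the 8 took 0.722% and 0.731% of counts with ipdc at 7 d, 0.542% and 0.892% with Az39 at 7 d, 1.08% and 1.20% with saline at 7 d, and 0.639% to 0.785% at 24 h. The ipdc 24 h libraries stood apart: 13 seed storage genes took 5.19% and 0.297% of their counts and 25 photosynthesis genes 0.383% and 2.19%, against 0.00147% to 0.126% and 0.0633% to 0.332% in the other libraries. None of these genes was at 0 in the ipdc 24 h libraries, and every result that uses ipdc at 24 h rests on them.

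Upstream regions are shown for 5 members on which the results turn. They are the 250 bases before the annotated start of the gene in RefSeq's TAIR10.1, read on the gene's own strand from 5′ to 3′, with each W box in capitals (TTGACC or TTGACT, or GGTCAA or AGTCAA where the box lies on the opposite strand). WRKY30 is shown because it rose with Az39 and holds the most boxes among these in the 250 bases shown. Their first bases lie 124, 69 and 61 bases before the start (chr5:8154711-8154960, minus strand). WRKY18 (chr4:15382527-15382776, plus strand) and WRKY38 (chr5:7496991-7497240, minus strand) rose with Az39 and hold none here, nor in the 500 bases before the start. WRKY11 (chr4:15291935-15292184, minus strand) fell with Az39 and has its only box shown here 106 bases before the start. Further boxes lie 307 and 460 bases before it. WRKY33 (chr2:16107985-16108234, plus strand) was higher at 7 d in every treatment and has boxes 96 and 32 bases before the start. A further box lies 292 bases before it.
WRKY30: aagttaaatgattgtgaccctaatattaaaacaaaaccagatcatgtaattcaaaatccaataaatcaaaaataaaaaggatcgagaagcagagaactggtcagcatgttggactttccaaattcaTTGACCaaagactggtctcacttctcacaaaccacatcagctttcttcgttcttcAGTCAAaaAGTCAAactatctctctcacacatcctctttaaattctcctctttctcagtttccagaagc
WRKY18: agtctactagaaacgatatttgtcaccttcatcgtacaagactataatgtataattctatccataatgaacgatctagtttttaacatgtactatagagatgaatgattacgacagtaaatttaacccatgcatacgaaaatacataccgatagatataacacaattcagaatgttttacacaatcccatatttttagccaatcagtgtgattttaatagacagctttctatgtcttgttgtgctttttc
WRKY38: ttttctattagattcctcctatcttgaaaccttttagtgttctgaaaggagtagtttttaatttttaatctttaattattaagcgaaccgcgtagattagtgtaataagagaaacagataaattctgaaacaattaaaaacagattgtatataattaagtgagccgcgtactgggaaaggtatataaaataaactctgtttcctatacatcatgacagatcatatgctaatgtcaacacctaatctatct
WRKY11: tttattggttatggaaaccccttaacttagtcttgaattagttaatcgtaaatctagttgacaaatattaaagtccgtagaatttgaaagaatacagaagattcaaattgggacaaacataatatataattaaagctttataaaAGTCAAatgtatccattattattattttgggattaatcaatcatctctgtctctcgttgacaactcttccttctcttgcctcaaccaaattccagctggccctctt
WRKY33: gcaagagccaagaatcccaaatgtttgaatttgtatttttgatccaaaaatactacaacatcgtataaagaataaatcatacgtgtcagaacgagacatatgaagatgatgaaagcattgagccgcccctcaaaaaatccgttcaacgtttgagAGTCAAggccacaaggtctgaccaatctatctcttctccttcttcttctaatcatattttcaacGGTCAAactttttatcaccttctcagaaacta
In the 500 bases before the start, 29 of the 52 members in the table (55.8%) held at least 1 W box on either strand, against 9447 of 21116 protein-coding genes of the table (44.7%), and 12 members (23.1%) held 2 or more, against 14.6%. A match of these letters is a description of the window and not a measured binding site.

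In saline roots at 7 d the most abundant members per kilobase of exon were WRKY33 at 122 CPM per kb, WRKY40 at 116, WRKY65 at 85.4, WRKY15 at 79.6 and WRKY17 at 75.2. The first 2 rest on libraries far apart, with 388 and 106 CPM for WRKY33 and 269 and 40 CPM for WRKY40. With either strain at 7 d WRKY40 led, at 442 CPM per kb with ipdc and 386 with Az39. WRKY18 ranked 12 with ipdc, 2 with Az39 and 30 with saline among the 50 members by level per kb at 7 d. At 24 h WRKY15 was first with ipdc (46.3 CPM per kb), ahead of WRKY40 (40.4), WRKY39 with Az39 (39.8) and WRKY17 with saline (42.2).

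**Figure D1:**
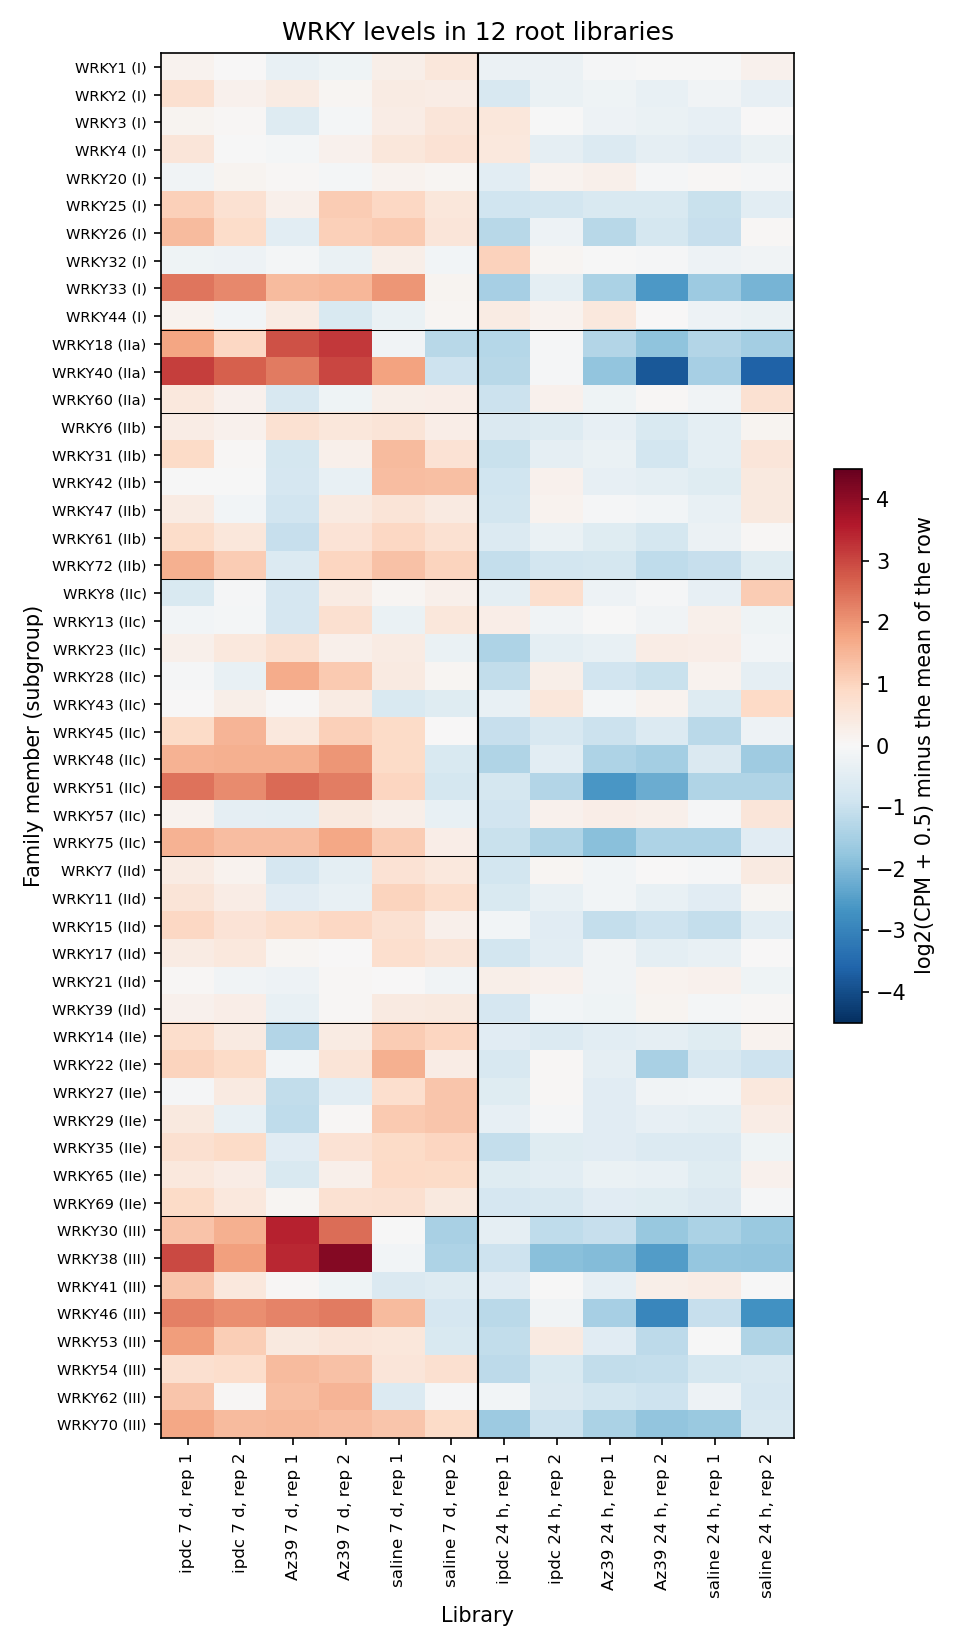
Level of each of the 50 tested WRKY members (rows, by subgroup) in the 12 libraries (columns), as log2(CPM + 0.5) minus the mean of the row. Subgroups IIa and III hold the strongest contrasts at 7 d, with WRKY18, WRKY40, WRKY30, WRKY38 and WRKY46 high in the ipdc and Az39 libraries and low in saline replicate 2.

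The first comparison asks which WRKY genes differed between inoculated and saline roots at 7 d. With Az39, WRKY18, WRKY30, WRKY38 and WRKY51 rose and WRKY1, WRKY11, WRKY27 and WRKY42 fell. With ipdc none passed the threshold (adjusted p under 0.05 over all genes tested, edgeR quasi-likelihood F test). The rises with Az39 were 4.38-fold to 25.4-fold and the falls 1.58-fold to 4.07-fold. The 8 calls are 16% of the 50 members tested, beside 3.69% of all genes tested; 4 members rose (2.35% of all genes did) and 4 fell (1.34%). Member libraries did not overlap with those of saline for 15 that were higher (30.7% of all genes) and 18 that were lower (26.4%) with Az39.

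WRKY38 (AT5G22570) is a group III factor that, with WRKY62, holds back basal defence and binds the histone deacetylase HDA19. It had 36.5 and 16.6 CPM in the ipdc 7 d libraries, 49 and 82.9 CPM in the Az39 7 d libraries and 3.87 and 1.33 CPM in the saline 7 d libraries. The 3 treatments did not overlap, with Az39 highest and saline lowest. The log2 fold change was 3.36 ± 0.57 with ipdc (SE, n = 2 libraries per group here and below; adjusted p = 0.148) and 4.66 ± 0.59 with Az39 (adjusted p = 0.00811), both against saline.

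WRKY30 (AT5G24110), another group III gene, responds to salicylic acid and oxidative stress. Its libraries held 5.1 and 6.51 CPM with ipdc, 25 and 12.7 CPM with Az39 and 1.76 and 0.344 CPM with saline at 7 d. Again the Az39 libraries were highest and the saline libraries lowest without overlap, although saline replicate 1 was 5.1 times replicate 2. The difference from saline was 2.47 ± 0.67 on the log2 scale with ipdc (adjusted p = 0.24) and 4.16 ± 0.70 with Az39 (adjusted p = 0.0187).

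WRKY18 (AT4G31800) forms complexes with WRKY40 and WRKY60, the other members of subgroup IIa, and the 3 tune basal defence together. At 7 d it reached 115 and 62.7 CPM with ipdc, 240 and 300 CPM with Az39 and 29.3 and 13.4 CPM with saline. The Az39 libraries lay above the ipdc libraries and those above saline. The log2 difference from saline was 2.06 ± 0.47 with ipdc (adjusted p = 0.182) and 3.66 ± 0.50 with Az39 (adjusted p = 0.0105), the second a 12.7-fold rise. Its partners were not called. WRKY40 (AT1G80840) had 668 and 502 CPM with ipdc, 394 and 629 with Az39 and 269 and 40 with saline, and WRKY60 13.2 to 16.1, 6.78 to 10 and 13.8 to 14 CPM in the same order of treatments. For WRKY40 both strains lay above saline, while for WRKY60 the Az39 libraries lay below saline.

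WRKY51 (AT5G64810), which with WRKY50 represses jasmonate responses, belongs to subgroup IIc. It had 53.5 and 43.6 CPM with ipdc, 58.1 and 49.2 CPM with Az39 and 19.2 and 5.26 CPM with saline at 7 d. The strains overlapped with each other and both lay above saline. Its log2 difference from saline was 1.99 ± 0.46 with ipdc (adjusted p = 0.182) and 2.13 ± 0.47 with Az39 (adjusted p = 0.0406), so the sizes were close and only the comparison with Az39 passed the threshold; the saline replicates of this gene differed 3.65-fold.

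Among the members that fell, WRKY11 (AT4G31550) is a calmodulin-binding subgroup IId factor that, with WRKY17, limits basal resistance to Pseudomonas and takes part in systemic resistance induced by root bacteria. It had 101 and 86.3 CPM with ipdc, 47.9 and 53.7 CPM with Az39 and 137 and 119 CPM with saline at 7 d. Az39 was lowest and saline highest, with no overlap. The log2 difference from saline was -0.46 ± 0.22 with ipdc and -1.33 ± 0.22 with Az39 (adjusted p = 0.018).

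WRKY27 (AT5G52830), a subgroup IIe gene that affects wilting caused by Ralstonia, had 16.3 and 22.7 CPM with ipdc, 7.49 and 12.1 CPM with Az39 and 28.6 and 41.1 CPM with saline. WRKY42 (AT4G04450), of subgroup IIb, acts on the phosphate transporters PHO1 and PHT1;1 and had 6.26 and 6.3 CPM with ipdc, 3.54 and 4.87 CPM with Az39 and 17.2 and 17.1 CPM with saline. WRKY1 (AT2G04880), a group I factor first described as ZAP1, had 34 and 30.4 CPM with ipdc, 23.9 and 26.4 CPM with Az39 and 36.5 and 42.9 CPM with saline. In all of these Az39 was lowest, saline highest and ipdc between them, without overlap. The log2 differences of Az39 from saline were -1.83 ± 0.35 for WRKY27 (adjusted p = 0.0263), -2.03 ± 0.42 for WRKY42 (adjusted p = 0.0343) and -0.66 ± 0.15 for WRKY1 (adjusted p = 0.0476). WRKY7, another calmodulin-binding member of subgroup IId, had 67.6 and 58.2 CPM with ipdc, 30.6 and 37.8 CPM with Az39 and 81.9 and 72.2 CPM with saline. It showed the same order and lay just outside the threshold at -1.17 ± 0.28 (adjusted p = 0.0506).

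**Figure D2:**
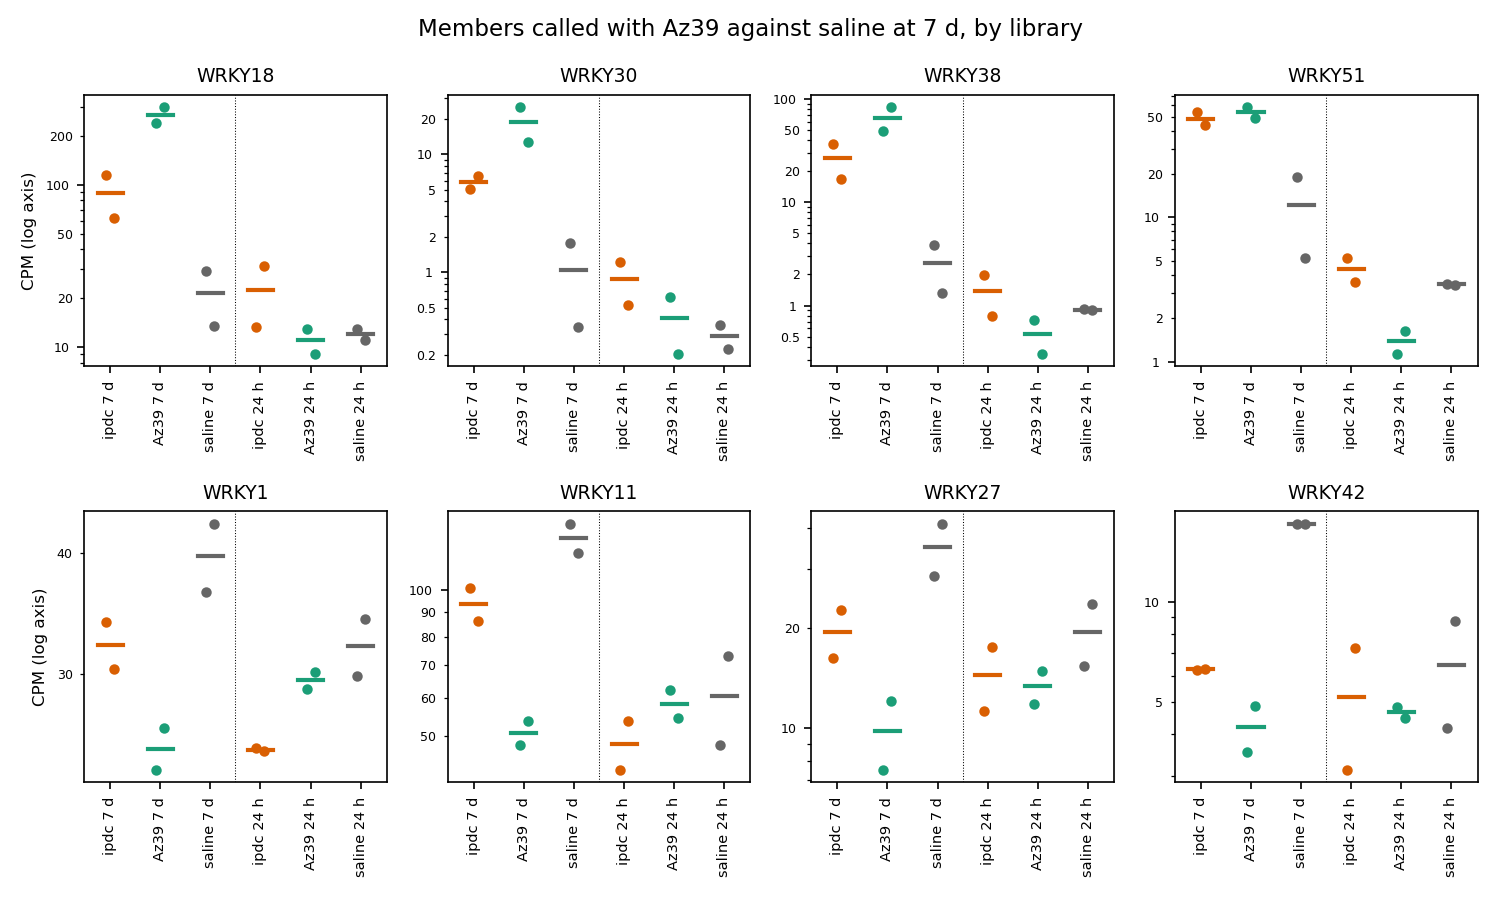
CPM (log axis) of the 8 members called between Az39 and saline at 7 d, in the ipdc, Az39 and saline libraries of 7 d (left of the dotted line) and 24 h (right); points are libraries and bars are means of 2. WRKY18, WRKY30, WRKY38 and WRKY51 (top) were highest with Az39 at 7 d by their means, and WRKY1, WRKY11, WRKY27 and WRKY42 (bottom) were highest with saline at 7 d.

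With ipdc against saline at 7 d, 0 of 50 members were called, beside 0.0159% of all genes, and 11 had an unadjusted p under 0.05 (10.5% of all genes did). With DESeq2 the count was 6 (5 higher and 1 lower). The shares of all genes here and below are those of edgeR, and none is given for DESeq2. The smallest adjusted p was 0.148 (WRKY38), followed by WRKY41, a group III gene induced by bacterial infection, at 1.61 ± 0.34 on the log2 scale (adjusted p = 0.17). WRKY41 (AT4G11070) had 20.9 and 11.9 CPM with ipdc, 8.79 and 7.36 CPM with Az39 and 5.22 and 5.56 CPM with saline, so here ipdc was highest, without overlap; WRKY41 overlaps a gene on the other strand that held more reads in every library, as given below. Libraries did not overlap for 14 members higher (28.6% of all genes) and 16 lower (23.7%) with ipdc.

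The median over the 50 members was 0.042 with ipdc and -0.084 with Az39 on the log2 scale against saline, beside 0.041 and 0.051 over all genes tested. Neither sign was stable: with ipdc the median was -0.087 without ipdc replicate 1 and -0.042 without saline replicate 2 of 7 d, and with Az39 it was 0.098 without Az39 replicate 1 and -0.32 without Az39 replicate 2 of 7 d. By subgroup, the medians with ipdc were 1.92 for IIa and 1.6 for III, and with Az39 1.73 and 1.17. For subgroup IIe they were -0.46 with ipdc and -1.06 with Az39, and for IIb -0.27 and -0.80. Both strains were set against the same saline libraries, so these values are not independent of each other.

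**Figure D3:**
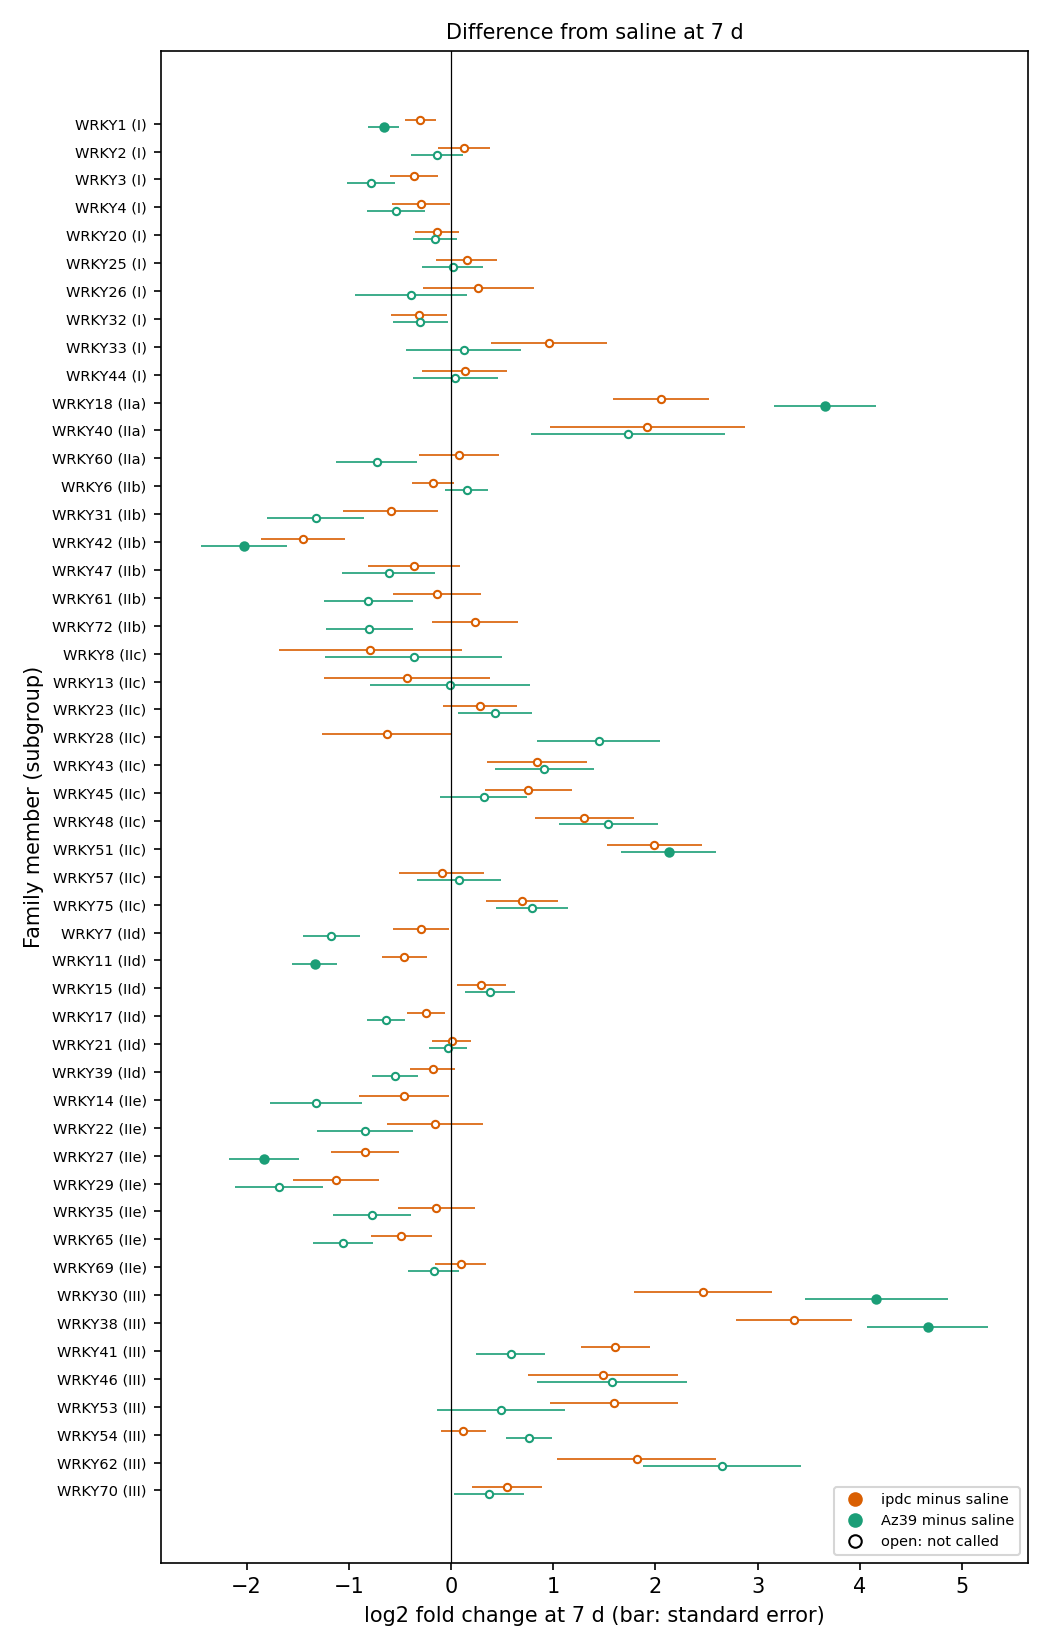
Log2 fold change from saline at 7 d for each of the 50 members (rows, by subgroup), for ipdc and Az39, with bars of 1 standard error; filled points passed the adjusted p of 0.05. The 8 filled points are all Az39 values, from -2.03 (WRKY42) to 4.66 (WRKY38), and group III members lie right of 0 with both strains.

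Taking the mean of both strains against saline at 7 d, 7 members were called, beside 1.74% of all genes (0.853% higher, 0.89% lower): WRKY18 (2.86 ± 0.46), WRKY30 (3.31 ± 0.65), WRKY38 (4.01 ± 0.55) and WRKY51 (2.06 ± 0.43) rose, and WRKY11 (-0.90 ± 0.18), WRKY27 (-1.33 ± 0.28) and WRKY42 (-1.74 ± 0.34) fell. All 7 were also called with Az39 alone, which shares its libraries with this comparison. Libraries of both strains lay apart from saline for 12 members higher (17.8% of all genes) and 12 lower (15.3%).

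The direct difference between strains at 7 d was called for 0 of 50 members, beside 0.117% of all genes; 11 members, and 1743 of the 18867 genes, were under an unadjusted p of 0.05, and DESeq2 called 2. The smallest adjusted p was that of WRKY11, 0.88 ± 0.22 for ipdc minus Az39 (adjusted p = 0.29). It was followed by WRKY18 at -1.60 ± 0.46 (adjusted p = 0.362) and WRKY28, an activator of the salicylic acid gene ICS1, at -2.08 ± 0.63 (adjusted p = 0.39). WRKY28 (AT4G18170) had 1.1 and 0.822 CPM with ipdc, 4.84 and 3.31 CPM with Az39 and 1.7 and 1.28 CPM with saline; Az39 stood above both others. Libraries of the strains did not overlap for 17 members higher (20.3% of all genes) and 8 lower (22.5%) with ipdc. The median member difference was 0.25, beside -0.015 over all genes, and it depended on single libraries: it was 0.051 without ipdc replicate 1, 0.095 without Az39 replicate 1 and 0.57 without Az39 replicate 2 of 7 d. A call with Az39 and none with ipdc therefore does not show that the strains differed.

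These 7 d counts depended on single libraries. Shares of all genes are not given for the fits that leave out a library, so the changes cannot be called particular to the members. Without saline replicate 2 of 7 d, 0 members were called with Az39 and 0 with both strains; without Az39 replicate 1 of 7 d the counts were 2 and 2. Without ipdc replicate 1 of 7 d they were 5 and 0, without ipdc replicate 2 of 7 d 5 and 2, without either Az39 24 h library 5 and 2, and without saline replicate 1 of 7 d 6 and 4. WRKY38 and WRKY18 kept their calls with Az39 in 19 of 20 settings tried, at log2 differences of 4.08 to 5.62 and 3.2 to 4.33, whereas WRKY1 kept its call in 8 and WRKY51 in 10. No called member changed direction. In saline at 7 d, replicate 2 was over 3-fold below replicate 1 for 6 members: WRKY40 (6.72-fold), WRKY30 (5.1), WRKY46 (4.67), WRKY33 (3.67), WRKY51 (3.65) and WRKY48 (3.02). The summed share of the 8 root markers, most of it PYK10, was larger in saline than in either strain at 7 d, as given above. It therefore describes PYK10 more than the markers as a set, and its part in these differences was not tested.

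A gene annotated on the other strand overlaps 10 members, among them WRKY1, WRKY33, WRKY40, WRKY41, WRKY53 and WRKY69, and without strand information reads from the shared stretch cannot be told apart. Shared stretches were measured between the annotated start and end of each gene, introns included. For WRKY41 the stretch was 517 bases, and its neighbour AT4G11080 had 464 to 1408 reads a library against 61 to 324 for WRKY41 itself. For WRKY53 it was 341 bases, and its neighbour AT4G23800 had 764 to 3974 reads against 32 to 434, so the values of both members are uncertain. For WRKY1 it was 166 bases, and its neighbour AT2G04890 had 93 to 359 reads a library. At 7 d this neighbour had 152 and 165 reads with ipdc, 210 and 242 with Az39 and 283 and 359 with saline. Both genes were thus highest with saline, while the neighbour was lowest with ipdc and WRKY1 with Az39. The part of shared reads in the call of WRKY1 was not tested, so that call is uncertain too.

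At 24 h no member was called in any treatment comparison. With ipdc against saline, 0 of 50 were called by edgeR, beside 2.11% of all genes; 5 passed an unadjusted p of 0.05 (16.3% of all genes), and the DESeq2 count was 0. With Az39 against saline, 0 of 50 were called by edgeR, beside 0% of all genes; 0 passed an unadjusted p of 0.05 (1.32% of all genes), and the DESeq2 count was 0. For ipdc against Az39, 0 of 50 were called by edgeR, beside 0.959% of all genes; 5 passed an unadjusted p of 0.05 (18.6% of all genes), and the DESeq2 count was 1. The seed storage and photosynthesis shares of the ipdc 24 h libraries, given above, moved with the comparisons that use ipdc, and their part in them was not tested.

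The 4 genes that rose with Az39 at 7 d were low at 24 h. WRKY38 had 1.99 and 0.796 CPM with ipdc, 0.72 and 0.34 CPM with Az39 and 0.926 and 0.897 CPM with saline at 24 h. WRKY30 stayed at 1.23 CPM or less in every 24 h library, WRKY51 at 5.21 CPM or less. WRKY18 had 13.3 and 31.5 CPM with ipdc, 12.9 and 9.05 CPM with Az39 and 12.8 and 11.1 CPM with saline at 24 h. The ipdc libraries lay above the others for WRKY18, at a log2 difference from saline of 0.91 ± 0.47 (adjusted p = 0.391).

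The smallest adjusted p with ipdc at 24 h belonged to WRKY32 (AT4G30935), a group I member that acts in light-dependent growth. It had 43.4 and 22.7 CPM with ipdc, 20.6 and 20.4 CPM with Az39 and 17.9 and 18.8 CPM with saline. Its highest value was that of ipdc replicate 1, the library with the largest seed storage share, and the log2 difference of ipdc from saline was 0.85 ± 0.27 (adjusted p = 0.133). WRKY23 (AT2G47260), a gene of auxin-dependent root patterning, had 8.52 and 16.7 CPM with ipdc, 18 and 29 CPM with Az39 and 28.7 and 21 CPM with saline at 24 h. The ipdc libraries were lowest without overlap, at -0.97 ± 0.38 against saline (adjusted p = 0.222) and -0.90 ± 0.38 against Az39 (adjusted p = 0.239).

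With Az39 at 24 h, 44 of the 50 members had a log2 difference from saline below 0, with a median of -0.22 beside 0.0015 over all genes. This tilt rested on a single library: without saline replicate 2 of 24 h, 26 were below 0 and the median was -0.018. Libraries did not overlap for 2 members higher (13.6% of all genes) and 8 lower (11.1%) with Az39. With ipdc the median was -0.23 against saline, beside 0.013 over all genes, and 0.022 without saline replicate 2 of 24 h; 8 members were higher without overlap (21.7% of all genes) and 7 lower (18%). Between the strains it was 0.19 for ipdc minus Az39, beside 0.033 over all genes, and -0.18 without ipdc replicate 2 of 24 h; 13 members were higher (23.9% of all genes) and 9 lower (21.7%) without overlap.

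A further comparison set the later sampling against the earlier within each treatment. In every treatment, saline included, the members that passed the test were all higher at 7 d, and they were fewer than the members that did not pass. With ipdc, 24 of 50 members were called and all were higher, beside 9.6% of all genes called higher and 10.5% lower. With Az39, 18 were called and all were higher, beside 9.71% of all genes higher and 4.23% lower. The 18 include WRKY62, which passed the low-count filter only through 3 libraries of 7 d with bacteria. With saline, 16 were called and all were higher, beside 8.02% of all genes higher and 8.6% lower. The 7 d roots were also older seedlings, so time after treatment and age cannot be told apart.

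As a share of all counts, the 52 members took 0.306% and 0.259% with ipdc, 0.208% and 0.266% with Az39 and 0.247% and 0.165% with saline at 7 d. At 24 h they took 0.0699% and 0.0948% with ipdc, 0.0841% and 0.0827% with Az39 and 0.0867% and 0.105% with saline. Every 7 d library lay above every 24 h library. Without WRKY33 and WRKY40, which were among the most abundant, the shares were 0.143% to 0.186% at 7 d and 0.0639% to 0.103% at 24 h, still apart.

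The median member difference between 7 d and 24 h was 1.12 on the log2 scale with ipdc, 0.54 with Az39 and 0.93 with saline, beside -0.052, -0.01 and 0.0105 over all genes. With Az39 it was 0.94 without Az39 replicate 1 of 7 d and 0.36 without replicate 2 of 7 d. Of the 50 members, 7 with ipdc, 15 with Az39 and 7 with saline had a difference below 0. Libraries of 7 d lay above those of 24 h for 35 members with ipdc (30.2% of all genes), 26 with Az39 (30%) and 35 with saline (33.9%), and below them for 3 (32.3%), 4 (30.2%) and 1 (33.7%). Across treatments, 30 members were called higher in at least 1, of which 12 in 2 and 8 in all 3, and 20 in none. The matching shares of all genes were not counted, so these numbers only describe the members. WRKY62 is 1 of the 30, through Az39 alone. The 8 called in all 3 were WRKY15, WRKY25, WRKY33, WRKY51, WRKY54, WRKY69, WRKY70 and WRKY75. For 11 members all 6 libraries of 7 d lay above all 6 of 24 h, which held for 7.71% of all genes tested, and for 0 they lay below, which held for 6.61%.

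**Figure D4:**
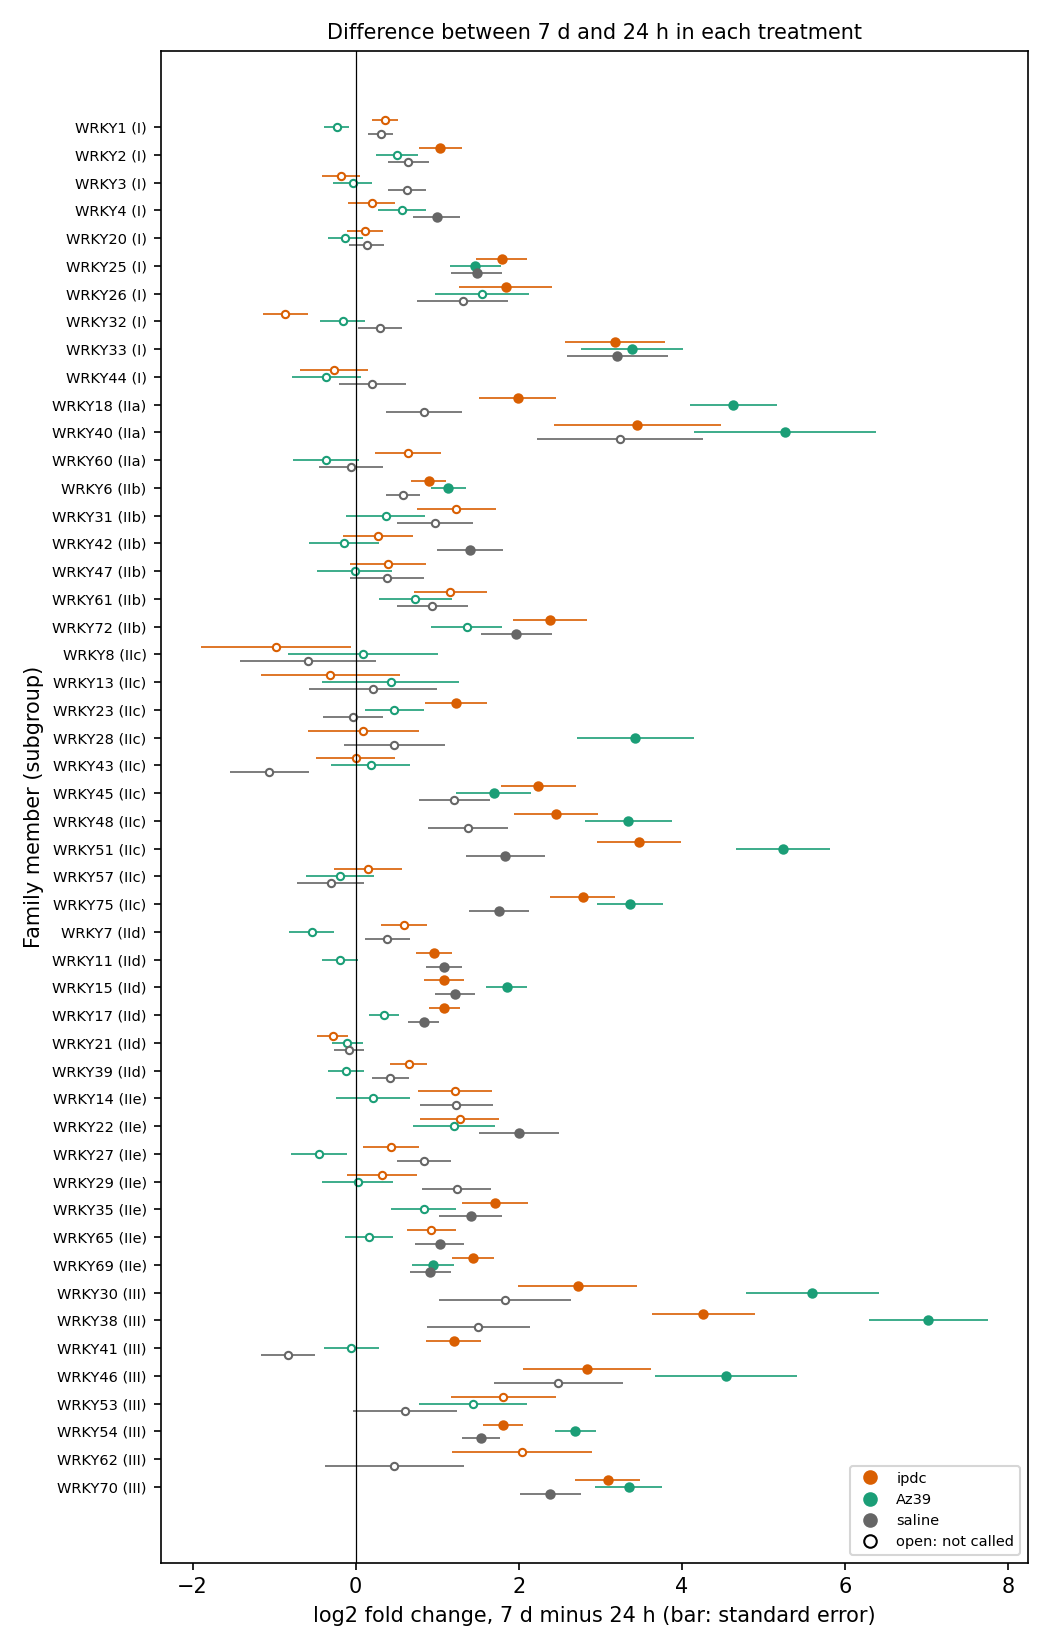
Log2 fold change of 7 d over 24 h for each of the 50 members (rows, by subgroup) with ipdc, Az39 and saline, with bars of 1 standard error; filled points passed the adjusted p of 0.05. All filled points lie right of 0. WRKY62 was called higher with Az39, but this point was left out because its Az39 24 h libraries held 2 reads in all.

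WRKY33 (AT2G38470), a group I factor that is phosphorylated by MPK3 and MPK6 and switches on camalexin synthesis, had 521 and 439 CPM with ipdc, 262 and 276 CPM with Az39 and 388 and 106 CPM with saline at 7 d. At 24 h it had 34.4 and 71.5 CPM with ipdc, 36 and 15.9 CPM with Az39 and 31.3 and 22.2 CPM with saline. All 7 d libraries lay above all 24 h libraries, the lowest being saline replicate 2. The log2 difference between times was 3.18 ± 0.62 with ipdc (adjusted p = 0.011), 3.38 ± 0.63 with Az39 (adjusted p = 0.00786) and 3.21 ± 0.62 with saline (adjusted p = 0.0139). At 7 d its difference from saline was 0.96 ± 0.57 with ipdc and 0.13 ± 0.56 with Az39, neither called.

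Its group I relatives WRKY25 and WRKY26 act with it in heat tolerance. WRKY25 (AT2G30250) had 49.4 and 37 CPM with ipdc, 27.1 and 51.4 CPM with Az39 and 44.4 and 33.2 CPM with saline at 7 d, and 11.4 to 16.3 CPM in the 24 h libraries. WRKY26 was called with ipdc alone, at 1.84 ± 0.57, with 61.9 and 41.2 CPM at 7 d against 9.28 and 19.5 CPM at 24 h. WRKY25 was separated by time in all treatments, with log2 differences of 1.79 ± 0.32, 1.47 ± 0.31 and 1.48 ± 0.31 with ipdc, Az39 and saline. Of the same group, WRKY2 was called with ipdc alone (1.04 ± 0.27) and WRKY4 with saline alone (0.99 ± 0.29).

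WRKY54 and WRKY70, a group III pair downstream of salicylic acid that also delay leaf senescence, were high at 7 d in all treatments. WRKY70 (AT3G56400) had 22.5 and 17.9 CPM with ipdc, 18.3 and 17.5 CPM with Az39 and 15.6 and 12 CPM with saline at 7 d, and 1.7 and 3.01, 2.06 and 1.5, and 1.65 and 3.59 CPM in the same treatments at 24 h. WRKY54 (AT2G40750) had 16.7 and 15.7 CPM with Az39 at 7 d, and 8.83 to 10.6 CPM in the ipdc and saline libraries of that time, and 2.37 to 3.54 CPM in the 24 h libraries. Neither gene overlapped between times in any treatment. The log2 differences were 3.09 ± 0.40 with ipdc, 3.35 ± 0.41 with Az39 and 2.39 ± 0.37 with saline for WRKY70, and 1.81 ± 0.24, 2.69 ± 0.25 and 1.54 ± 0.23 for WRKY54 (largest adjusted p = 0.00924).

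WRKY38, WRKY30 and WRKY46, also of group III, were called with both strains and not with saline. For WRKY38 the log2 difference between times was 4.26 ± 0.63 with ipdc (adjusted p = 0.00477), 7.02 ± 0.73 with Az39 (adjusted p = 0.000802) and 1.50 ± 0.63 with saline (adjusted p = 0.128); its Az39 libraries held 2159 reads at 7 d and 12 at 24 h. WRKY30 differed by 2.72 ± 0.73, 5.60 ± 0.82 and 1.83 ± 0.81 with ipdc, Az39 and saline. WRKY46 (AT2G46400), which lowers expression of the malate transporter ALMT1, had 83.6 and 73 CPM with ipdc, 80 and 86.1 CPM with Az39 and 46 and 9.84 CPM with saline at 7 d, and 6.91 and 15, 5.66 and 1.77, and 7.87 and 2.15 CPM at 24 h in the same order. It too separated by time in every treatment, but with saline the difference of 2.49 ± 0.79 missed the threshold (adjusted p = 0.0564). WRKY62, the partner of WRKY38, passed the low-count filter only through 3 libraries of 7 d with bacteria. With Az39 it was called, with 79 reads at 7 d and 2 at 24 h. The filter and the call rest on the same high libraries, so the call is no independent result.

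Among the remaining group III genes, WRKY53, a senescence regulator, was not called at any time or treatment and ranged over 2.51 to 28 CPM, highest in replicate 1 of ipdc at 7 d. WRKY41 was called between times with ipdc, at 1.20 ± 0.34 (adjusted p = 0.0349). In saline its 7 d libraries, at 5.22 and 5.56 CPM, lay below its 24 h libraries, at 10.8 and 8.43 CPM.

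In subgroup IIc, WRKY75, WRKY45, WRKY48 and WRKY51 were higher at 7 d. WRKY75 (AT5G13080) responds to phosphate starvation and limits root hair growth. It had 30.3 and 27.1 CPM with ipdc, 26.8 and 34.3 CPM with Az39 and 22.9 and 12.5 CPM with saline at 7 d, and 4.73 and 3.62, 2.37 and 3.47, and 3.55 and 6.91 CPM at 24 h in the same order. No 7 d library was as low as any 24 h library, and the log2 differences were 2.78 ± 0.39, 3.37 ± 0.41 and 1.75 ± 0.37 with ipdc, Az39 and saline, all called.

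WRKY45 (AT3G01970), an activator of the phosphate transporter PHT1;1, had 13.7 and 22.1 CPM with ipdc, 10.3 CPM in Az39 replicate 1 (replicate 2 lay between the ipdc libraries) and 13.7 and 7.48 CPM with saline at 7 d, and 2.88 to 6.24 CPM at 24 h. It was called with ipdc (2.24 ± 0.46) and Az39 (1.69 ± 0.45) and missed the threshold with saline (1.21 ± 0.44, adjusted p = 0.085). WRKY48 (AT5G49520), a repressor of basal defence, had 86.1 and 88.5 CPM with ipdc, 88.8 and 117 CPM with Az39 and 53.2 and 17.6 CPM with saline at 7 d, and 9.2 to 20.8 CPM at 24 h. It showed the same order of calls, at 2.45 ± 0.51, 3.34 ± 0.53 and 1.37 ± 0.49. WRKY51 was called in all 3, at 3.48 ± 0.51, 5.24 ± 0.58 and 1.83 ± 0.49. WRKY28 was called with Az39 alone, at 3.43 ± 0.72, with 135 reads at 7 d against 9 at 24 h, and WRKY23 with ipdc alone, at 1.23 ± 0.38.

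In subgroup IIa, WRKY40 had 32.2 and 74.8 CPM with ipdc, 22 and 5.04 CPM with Az39 and 27 and 5.79 CPM with saline at 24 h, and 5 of its 6 libraries of 7 d lay above all of these, the exception being saline replicate 2. Its log2 difference between times was 3.45 ± 1.02 with ipdc (adjusted p = 0.0409), 5.26 ± 1.12 with Az39 (adjusted p = 0.0147) and 3.24 ± 1.02 with saline (adjusted p = 0.0551). WRKY18 was called with ipdc (1.99 ± 0.47) and Az39 (4.63 ± 0.53) and not with saline (0.83 ± 0.47). WRKY60 was called in none.

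In subgroup IIb, WRKY6 (AT1G62300), which represses PHO1 and acts in the response to low boron, had 41.3 and 36.7 CPM with ipdc, 52.1 and 45.9 CPM with Az39 and 48.5 and 39.7 CPM with saline at 7 d, and 20.3 and 21.7, 24.6 and 20.1, and 23.8 and 35.1 CPM at 24 h in the same order. All 7 d libraries were above all 24 h libraries by a small margin. The log2 difference was 0.90 ± 0.21 with ipdc (adjusted p = 0.0201), 1.14 ± 0.21 with Az39 (adjusted p = 0.00851) and 0.58 ± 0.21 with saline (adjusted p = 0.0827). WRKY72 (AT5G15130), a basal defence gene, had 121 and 87.6 CPM with ipdc, 25.1 and 77.1 CPM with Az39 and 98.3 and 79.5 CPM with saline at 7 d, and 17.6 to 26.7 CPM at 24 h. Az39 replicate 1 of 7 d sat among the 24 h values, and the gene was called with ipdc (2.38 ± 0.45) and saline (1.97 ± 0.44) but not with Az39 (1.36 ± 0.44, adjusted p = 0.0665). WRKY42 was called with saline alone, at 1.40 ± 0.41.

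**Figure D5:**
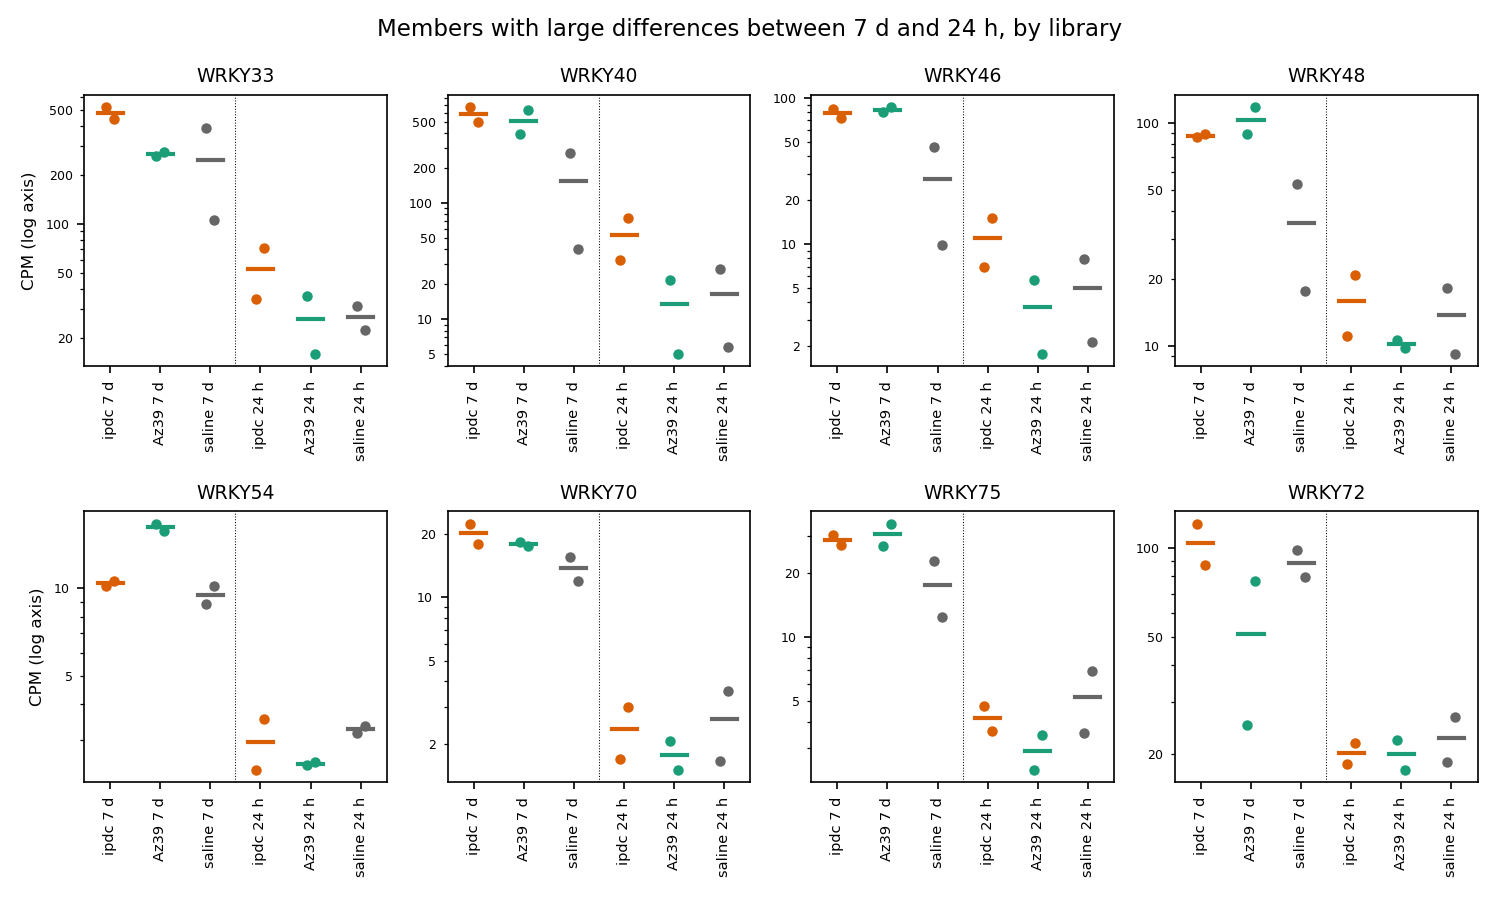
CPM (log axis) of 8 members with large differences between times, in the ipdc, Az39 and saline libraries of 7 d (left of the dotted line) and 24 h (right); points are libraries and bars are means of 2. For WRKY33, WRKY54, WRKY70 and WRKY75 all 6 libraries of 7 d lie above all 6 of 24 h, and for WRKY33, WRKY40, WRKY46 and WRKY48 saline replicate 2 of 7 d lies over 3-fold below replicate 1.

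In subgroup IId, 3 of 6 members were called higher at 7 d with ipdc, 1 with Az39 and 3 with saline, and in subgroup IIe 2, 1 and 4 of 7; the median log2 differences were 0.80, -0.11 and 0.63 for IId and 1.22, 0.21 and 1.23 for IIe. WRKY15 (AT2G23320), which takes part in salt and oxidative stress responses, had 139 and 113 CPM with ipdc, 127 and 140 CPM with Az39 and 119 and 85.2 CPM with saline at 7 d, and 35 to 67.6 CPM at 24 h; it was called in all treatments, at 1.08 ± 0.25, 1.85 ± 0.25 and 1.22 ± 0.25. WRKY11 and WRKY17 were called with ipdc (0.96 ± 0.22 and 1.08 ± 0.19) and saline (1.09 ± 0.22 and 0.83 ± 0.19) and not with Az39 (-0.20 ± 0.22 and 0.35 ± 0.19). In subgroup IIe, WRKY69 (AT3G58710) had 51.2 and 39.3 CPM with ipdc, 30.2 and 45.2 CPM with Az39 and 46.5 and 38.2 CPM with saline at 7 d, and 16.3 to 27.1 CPM at 24 h, and was called in all treatments at 0.91 to 1.44. WRKY35 was called with ipdc and saline, and WRKY65 and WRKY22, a target of the flagellin-activated MAP kinase cascade, with saline alone.

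The difference of each treatment effect between the times was tested as well, and no member passed. For ipdc minus saline, 0 of 50 differences between 7 d and 24 h were called by edgeR, beside 0.106% of all genes; 6 passed an unadjusted p of 0.05 (13.9% of all genes), and the DESeq2 count was 2. For Az39 minus saline, 0 of 50 were called by edgeR, beside 0.0424% of all genes; 14 passed an unadjusted p of 0.05 (11.8% of all genes), and the DESeq2 count was 5. The smallest adjusted p values were those of WRKY38, at 5.52 ± 0.98, and WRKY18, at 3.80 ± 0.67, both with an adjusted p of 0.0899. The calls with Az39 at 7 d and their lack at 24 h thus stand without a called difference between the times.

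The time counts also depended on single libraries. Here too no shares of all genes are given for the smaller fits, so the changes cannot be called particular to the members. With saline, 0 members were called without saline replicate 1 of 7 d or without saline replicate 1 of 24 h, and 10 without either ipdc 7 d library. With ipdc, 5 were called without ipdc replicate 1 of 7 d and 11 without ipdc replicate 1 of 24 h. With Az39, 8 were called without Az39 replicate 2 of 24 h. No member was called lower in any of these.

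Members never called in any comparison numbered 18 and included group I genes such as WRKY20 and WRKY44 (TTG2, a gene of trichome and seed coat development), subgroup IId genes such as WRKY21 and WRKY39, and WRKY29, a flagellin-response gene of subgroup IIe. Their CPM ranged over 0.236 (WRKY13) to 121 (WRKY39). WRKY21 was among the steadiest at 25.1 to 35.7 CPM, and WRKY20 at 17.5 to 28.6 CPM. The others were WRKY3 (15.6 to 35.2 CPM), WRKY7, WRKY14 (7.02 to 40.9), WRKY31 (6.63 to 37.5), WRKY32, WRKY43, WRKY47 (6.49 to 18.5), WRKY53, WRKY57 (8.99 to 24.9), WRKY60 and WRKY61 (6.07 to 25.4). WRKY8 and WRKY13 were near the detection limit, at 2.69 CPM or less in every library.

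In the windows described above, at least 1 W box lay in the 500 bases upstream of 4 of the 8 members called with Az39 at 7 d (50%). Of the 30 called higher at 7 d than at 24 h in any treatment 17 held one (56.7%), and of the other 20 tested 10 did (50%).

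Of 20 kinases and partner proteins known to act on WRKY factors, all were tested and none was called in any treatment comparison at 7 d or 24 h. Between times, 9 were higher at 7 d with ipdc, 9 with Az39 and 4 with saline, beside 9.6%, 9.71% and 8.02% of all genes, and none was lower. MPK3, a MAP kinase upstream of WRKY33, had 482 and 369 CPM with ipdc, 217 and 356 CPM with Az39 and 301 and 116 CPM with saline at 7 d, and 51.1 and 78.3, 47.8 and 37.7, and 43.6 and 46.1 CPM at 24 h in the same order. Its 7 d libraries lay above its 24 h libraries throughout, with saline replicate 2 lowest among them, as for WRKY33. The log2 difference was 2.72 ± 0.44 with ipdc (adjusted p = 0.00634), 2.75 ± 0.44 with Az39 (adjusted p = 0.00433) and 2.22 ± 0.43 with saline (adjusted p = 0.0141). MKK9, a MAP kinase kinase, and MKS1, a protein that links MPK4 to WRKY33, were likewise called in all treatments, at 1.86 to 2.56 and 2.00 to 3.05. So was CPK6 of the same list, at 1.40 with ipdc, 1.28 with Az39 and 1.06 with saline.

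Of 20 genes reported as targets of WRKY factors, 18 were tested. At 7 d the malate transporter gene ALMT1 was the one called with ipdc against saline: it had 105 and 141 CPM with ipdc, 60.9 and 90.3 CPM with Az39 and 26 and 15.8 CPM with saline. Its ipdc libraries were highest and its saline libraries lowest without overlap, at log2 differences from saline of 2.55 ± 0.29 with ipdc (adjusted p = 0.0385) and 1.86 ± 0.29 with Az39 (adjusted p = 0.0143). With Az39 the jasmonate repressor gene JAZ8 also rose, at 4.48 ± 0.77 (adjusted p = 0.0197), with 64.7 and 46.7 CPM with ipdc and 41.5 and 135 CPM with Az39 against 6.77 and 1.13 CPM with saline.

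The phosphate exporter gene PHO1, which WRKY6 and WRKY42 repress, fell with Az39, with 251 and 214 CPM with ipdc, 159 and 195 CPM with Az39 and 355 and 426 CPM with saline at 7 d. The boron exporter gene BOR1 fell as well, with 34.8 and 38.3, 20.8 and 29.1, and 70.2 and 77.4 CPM in the same order. Both were lowest with Az39 and highest with saline, at log2 differences from saline of -1.14 ± 0.23 for PHO1 (adjusted p = 0.0325) and -1.56 ± 0.30 for BOR1 (adjusted p = 0.0275) with Az39. WRKY42 was itself among the members that fell with Az39.

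At 24 h the abscisic acid regulator ABI5 was called with ipdc against saline, with 128 and 12.6 CPM with ipdc, 1.95 and 6.33 CPM with Az39 and 2.78 and 2.47 CPM with saline (log2 difference from saline 4.75 ± 0.99, adjusted p = 0.0446). Its highest value was in ipdc replicate 1, the library with the largest share of seed storage transcripts. Between times, 7 targets were higher and 1 lower with ipdc, 4 higher and 1 lower with Az39, and 4 higher and 0 lower with saline. Of all genes, 9.6% were called higher and 10.5% lower with ipdc, 9.71% and 4.23% with Az39, and 8.02% and 8.6% with saline. When the difference of ipdc from saline was compared between 7 d and 24 h, ALMT1 was the 1 target that passed, at 3.16 ± 0.41 (adjusted p = 0.0414). The estimate for ABI5 was larger in size and did not pass, at -5.67 ± 1.32 (adjusted p = 0.123). With Az39 no target passed that test.

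PAD3, the last enzyme of camalexin synthesis and a target of WRKY33, had 1.94 and 2.53 CPM with ipdc, 4.6 and 2.43 CPM with Az39 and 8.42 and 5.9 CPM with saline at 7 d. At 24 h it had 4.83 and 10.6 CPM with ipdc, 19.2 and 7.08 CPM with Az39 and 6.07 and 17.7 CPM with saline. PAD3 was not called in any comparison, while WRKY33 was higher at 7 d in every treatment. Other genes of the target list differed from PAD3. CYP71A12 was called higher at 7 d with ipdc (4.33 ± 1.08) and saline (4.72 ± 1.07), and not with Az39 (2.01 ± 0.95). CYP71A13 was not called between times, at 2.22 ± 1.30 with ipdc, -0.17 ± 1.05 with Az39 and 1.61 ± 0.98 with saline.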

How the data were processed

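RNA from whole roots was sequenced as 150 bp single-end reads in 12 libraries, 2 in each of 6 groups, grouped by the titles in the labels. The values deposited by the authors are raw read counts for each gene. The submitters' processing notes name HISAT2 2.2.1, featureCounts and the TAIR10 build; how strand and multiply matching reads were treated is not stated in the labels. Library totals of 9665704 to 21541793 counts set the precision. The labels call the libraries biological replicates.

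The tool was edgeR 4.0.16 in R 4.3.3, with filterByExpr (minimum count 10, minimum total 15, proportion 0.7), TMM scaling, a mean per group over all 12 libraries (6 residual degrees of freedom) and two-sided quasi-likelihood F tests, with Benjamini-Hochberg adjustment over the 18867 genes in each of 12 comparisons and a threshold of 0.05. The prior count was 0.125, and errors after ± are standard errors, taken as the size of the log2 fold change over the root of its F value. CPM are TMM-scaled counts per 1000000 without a prior count. Levels per kb use the union of exons in RefSeq's TAIR10.1, to which 21120 of the 21200 identifiers matched by locus and from which upstream regions were read; the deposited table holds no coordinates. Scripts were tested on simulated data.

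Alternatives were RLE scaling, no filter, DESeq2 1.42.0, limma-voom (limma 3.58.1), the replicate mark as a block, libraries of the same time alone, no ipdc 24 h libraries, an adjusted p under 0.1, and leaving out each library, where the lone library left in a group is assumed to vary like the others. Members called in any treatment comparison, and WRKY33, WRKY40, WRKY70, WRKY75, WRKY6 and WRKY45 whatever their result, were named with the value in every library; from the lists of partners and targets up to 4 called genes per comparison were named, and MPK3 and PAD3. Other members named were chosen after their values were seen. The members and lists were chosen with earlier results of these data known.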

Additional observations from a re-analysis of the deposited data

How the results depend on the processing

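No called direction was reversed under any alternative, and RLE scaling, no low-count filter, limma-voom and the fits without the ipdc 24 h libraries or with libraries of the same time alone kept every count of called members within 1.5 times that reported. DESeq2 called 6 members with ipdc and 16 with Az39 against saline at 7 d, 13 for both strains, 2 for ipdc against Az39 at 7 d and 1 at 24 h, and 2 (ipdc) and 5 (Az39) for the difference between times. No DESeq2 share over all genes is given, so these counts cannot be set against the edgeR shares. At an adjusted p under 0.1, 16 members were called with Az39 at 7 d and 2 for its difference between times. No share over all genes is given at this threshold, so these numbers only describe the members. Differences between the replicates of a group were weakly correlated between groups of the same time (correlations -0.225 to 0.206). Each group gives a single such difference, so this cannot settle whether same-numbered libraries share a batch or day. With the replicate block, 15 members were called between times with ipdc and 2 with saline. The cause of these shifts was not tested. Shares of all genes are not given for the replicate block, nor for the fits below that leave out a library. Leaving out 1 library at a time gave 0 to 1 called members with ipdc, 0 to 11 with Az39 and 0 to 8 with both strains against saline at 7 d, and 0 to 0 for ipdc against Az39. At 24 h the ranges were 0 to 2 with ipdc, 0 to 0 with Az39 and 0 to 2 between the strains. Between times they were 5 to 25 with ipdc, 8 to 22 with Az39 and 0 to 19 with saline, and for both differences between times 0 to 2. With 2 libraries a group and totals down to 9665704 counts, members below about 1 CPM, such as WRKY62 and WRKY13, were limited by depth.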
